A study of Mus musculus with 2 samples.

Results

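The endothelial genes described here are Cdh5, Cldn5, Emcn, Kdr, Flt1, Pecam1, Tek, Tie1, Sox17 and Sox18. They were chosen by name as markers of the cells that line blood vessels, and each was found in the deposited table, which makes 10 of 23157 genes, listed through 25 of 64053 transcripts. The table holds poly(A)-selected, strand-specific RNA-seq of mouse distal forelimbs at E12.5, the stage at which the digits form. It has 2 groups of 1 library. Wild type is set against the HoxD Inv(TpSB1-Itga6) allele, and both libraries were made from pooled forelimbs of the strain C57Bl6CBAF1. This allele inverts 2.4 Mb of chromosome 2 next to the HoxD cluster, and according to the methods of the study the mutant embryos were homozygous. The question behind the pair of libraries was how gene expression in the digit-forming tissue differs once this segment is inverted. The endothelial genes answer a narrower one, namely how far the vessel compartment of the same tissue differed between the libraries.

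Endothelial cells form the inner wall of all vessels. They are held together by junctional proteins such as VE-cadherin, the product of Cdh5, and they grow and branch under 2 ligand systems, in which VEGF ligands bind the receptors encoded by Kdr and Flt1, and angiopoietins bind the receptor encoded by Tek, with the related receptor encoded by Tie1 at its side. The transcription factors of the SoxF group, among them Sox17 and Sox18, act in the specification of arteries and lymphatic vessels. In the limb bud a capillary plexus pervades the mesenchyme and retreats from the condensations that become cartilage.

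Values are reads after division by a size factor per library and are called normalized reads below. The wild-type library held 9280660 reads over all transcripts and the inversion library 9466154. A log2 ratio is that of the inversion library over the wild-type library with a pseudocount of 1, and it is given for the 16756 genes whose mean reached 10 normalized reads, a filter that each of the 10 endothelial genes passed. With 1 library per group no difference has a replicate check and no p-value is given. The 95% intervals, exact after Clopper and Pearson, are those of the split of a gene's reads between the libraries. They cover counting error only, and they compare the libraries and not the genotypes. Embryo sex differed between the pools, since Xist had 2607 reads in wild type against 13 with the inversion while 4 Y-linked genes summed to 826 and 2820, so that sex and genotype cannot be told apart.

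The endothelial genes differed little between the libraries. Together they had 5122 reads in wild type against 4864 with the inversion, which after scaling is a ratio of 0.926. None was at least 2-fold higher or lower in the inversion library, against 3.99% of all genes that were 2-fold higher and 0.483% that were 2-fold lower. Of the 10 genes, 9 had a log2 ratio below 0 and 1, Sox17, had a ratio above 0. Over all genes passing the filter, between 51.7% and 55.5% had a ratio below 0. The median log2 ratio of the 10 endothelial genes was -0.11, beside -0.02 over all genes passing the filter. In a bulk sample, fewer endothelial cells and less RNA of these genes per cell cannot be told apart.

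**Figure D1:**
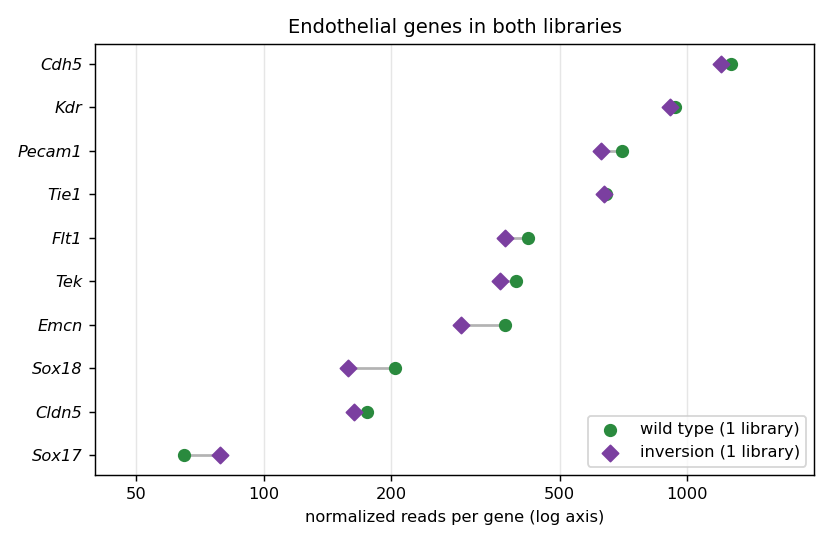
Normalized reads of the 10 endothelial genes (vertical axis) on a log axis, with 1 point per library (circles, wild type; diamonds, inversion) and a grey line between them. The points of Cdh5, Kdr and Tie1 nearly coincide, those of Emcn and Sox18 are furthest to the left in the inversion library relative to wild type, and Sox17 is the gene with the higher value in the inversion library.

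The counting interval lay below 0 for Emcn, Sox18 and Pecam1 and above 0 for none of the 10 genes. Over all genes passing the filter, the interval lay below 0 for 13.0% and above 0 for 16.7%. With an adjusted exact binomial test on the reads in place of the intervals, 1 of the 3, Emcn, was still called. A band of 1.25-fold around no difference, chosen after the values were seen, held 8 of the 10 endothelial genes beside 77.1% of all genes, and 7 of the 9 whose mean reached 100 normalized reads beside 87.2% of all such genes. The share of endothelial genes in this band was thus near that of other genes.

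**Figure D2:**
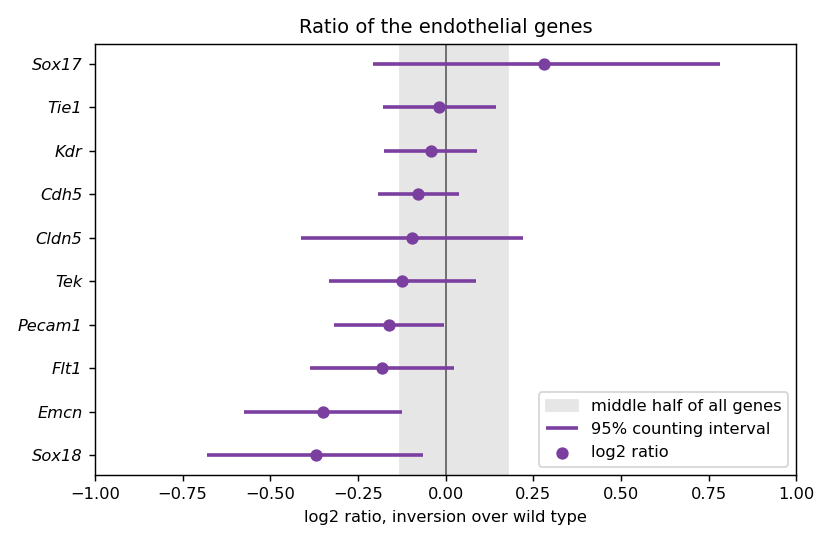
Log2 ratio of inversion over wild type (horizontal axis) for each endothelial gene (vertical axis), with the 95% counting interval as a bar and the range from the lower to the upper quartile of all genes (-0.13 to 0.18) shaded. Points run from -0.37 for Sox18 to 0.28 for Sox17, and the bars of Sox18, Emcn and Pecam1 end below 0.

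Among the genes of the cell surface, Cdh5 (chromosome 8, 104101625 to 104144511 on GRCm38, plus strand), which encodes the adherens junction protein VE-cadherin, had the most reads. It was counted with 1269 normalized reads in wild type against 1202 with the inversion. These values are close, with a log2 ratio of -0.08 and an interval of -0.19 to 0.04. Cldn5 (chromosome 16, 18776847 to 18778262, plus strand) encodes claudin-5, a tight junction protein of endothelium. It had 175 and 164 normalized reads, which gave a log2 ratio of -0.10 (interval -0.41 to 0.22). No difference of either junction gene was detectable at this depth.

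Pecam1 (chromosome 11, 106654217 to 106750628, minus strand), the gene of the adhesion molecule CD31, went from 702 normalized reads in the wild-type library to 627 in the inversion library. Its log2 ratio was -0.16, and the interval of -0.32 to -0.0047 ended just below 0. Emcn (chromosome 3, 137341067 to 137432185, plus strand) encodes endomucin, a sialomucin found mainly on capillary and venous endothelium. It had 373 normalized reads in wild type against 292 with the inversion, a log2 ratio of -0.35 (interval -0.58 to -0.13). Of all genes passing the filter, 5.35% had a lower ratio than Emcn.

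Kdr (chromosome 5, 75932827 to 75978458, minus strand) encodes VEGFR2, the main signalling receptor for VEGF-A. With 938 and 911 normalized reads it was nearly level between the libraries, at a log2 ratio of -0.04 (interval -0.18 to 0.09). Flt1 (chromosome 5, 147561604 to 147726011, minus strand) encodes VEGFR1, which binds VEGF-A tightly and signals weakly. Its 422 and 372 normalized reads gave a log2 ratio of -0.18 (interval -0.39 to 0.02). Kdr took 69.0% of the reads of both receptor genes in the wild-type library (95% interval 66.4 to 71.4) and 71.0% in the inversion library (68.4 to 73.4), and these intervals overlap.

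Tek (chromosome 4, 94739289 to 94874976, plus strand) encodes the angiopoietin receptor TIE2. It was counted with 395 and 362 normalized reads, which gave a log2 ratio of -0.12 (interval -0.33 to 0.09). Tie1 (chromosome 4, 118471191 to 118490061, minus strand) encodes its partner without a known high-affinity angiopoietin ligand of its own. It had the ratio closest to 0 among the 10 genes, -0.02 (interval -0.18 to 0.14), from 644 and 636 normalized reads. Tie1 held 62.0% of the reads of this receptor pair in the wild-type library (58.9 to 65.0) and 63.7% in the inversion library (60.6 to 66.7), again with overlapping intervals.

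The SoxF genes lay at both ends of the set. Sox18 (chromosome 2, 181669836 to 181671640, minus strand) had 205 normalized reads in wild type against 158 with the inversion. Its log2 ratio of -0.37 (interval -0.68 to -0.07) was the lowest of the 10, and 4.74% of all genes had a lower one. Sox18 is the only one of the 10 on the inverted chromosome, 107 Mb beyond the end of Lnpk, a gene at the HoxD side of the inverted segment. Sox17 (chromosome 1, 4490931 to 4497354, minus strand), a factor of arterial endothelium in vessels, had 64.8 and 79.0 normalized reads. It had the highest log2 ratio of the set, 0.28, but rested on 64 and 80 reads, and its interval of -0.21 to 0.78 includes 0. Exons of Sox17 overlap those of Gm37587 on the other strand, a gene with no row in the table. Sox18 took 75.9% of the reads of the pair in the wild-type library (70.3 to 80.9) and 66.7% in the inversion library (60.3 to 72.6), with intervals that overlap.

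Levels can be set against each other only per length. Each transcript of known length was therefore divided by its own length, and the quotients were summed to normalized reads per kb. Transcripts without a known length were left out of this sum. On this scale Cdh5 was the highest of the 10 genes in both libraries, with a level of 318 in wild type and 301 in the inversion, above 81.0% and 80.7% of all genes with a read. Pecam1 came next with levels of 228 and 218, followed by Emcn (192 and 154) and Kdr (158 and 154). Tek, Sox18, Cldn5 and Tie1 formed a middle group between 97.5 and 127, in an order that differed between the libraries. Flt1 was lower, at 64.2 and 56.1, and Sox17 the lowest, at 27.0 and 34.4, above 34.5% and 37.9% of all genes.

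The depth separated some of these neighbours and not others. The exact Poisson intervals of the counts overlapped for 4 of the 9 neighbouring pairs in each library. They used all reads of a gene, also those left out of its level, and so are too narrow for Tie1, Pecam1 and Emcn. In the wild-type library the intervals overlapped between Pecam1 and Emcn and within the middle group, and in the inversion library between Emcn and Kdr and within the middle group. The choice of length mattered as well, since transcripts without a known length held 36.6% and 38.0% of the reads of Tie1 and 23.4% and 26.0% of those of Pecam1. Divided by the length of its longest transcript, Emcn was at 106 and 83.0 normalized reads per kb and Tie1 at 157 and 155, which places Tie1 beside Kdr, and Emcn below Sox18 and Cldn5. Cdh5, Pecam1, Flt1 and Sox17 kept their places in the order.

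Of the 10 genes, Cdh5, Cldn5, Kdr and Sox18 are listed with a single transcript, and the other 6 share 21 transcripts. Each of the 25 had a mean above 10 normalized reads, and 22 were found in GENCODE M21. How reads that fit several transcripts were shared among them is not given in the sources used here, so the values of overlapping transcripts are uncertain. With the pseudocount of 1, no transcript was at least 2-fold different. Of all transcripts, 6.66% were 2-fold higher and 2.19% were 2-fold lower in the inversion library. A transcript of Emcn reached 2-fold without the pseudocount, with 51.64 normalized reads in wild type against 25.68 with the inversion. The counting interval lay below 0 for 5 and above 0 for none of them, against 9.21% and 14.0% of all transcripts. The 5 were Emcn-201, Flt1-203, Pecam1-202, Sox18-201 and a transcript of Emcn without an entry in M21.

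**Figure D3:**
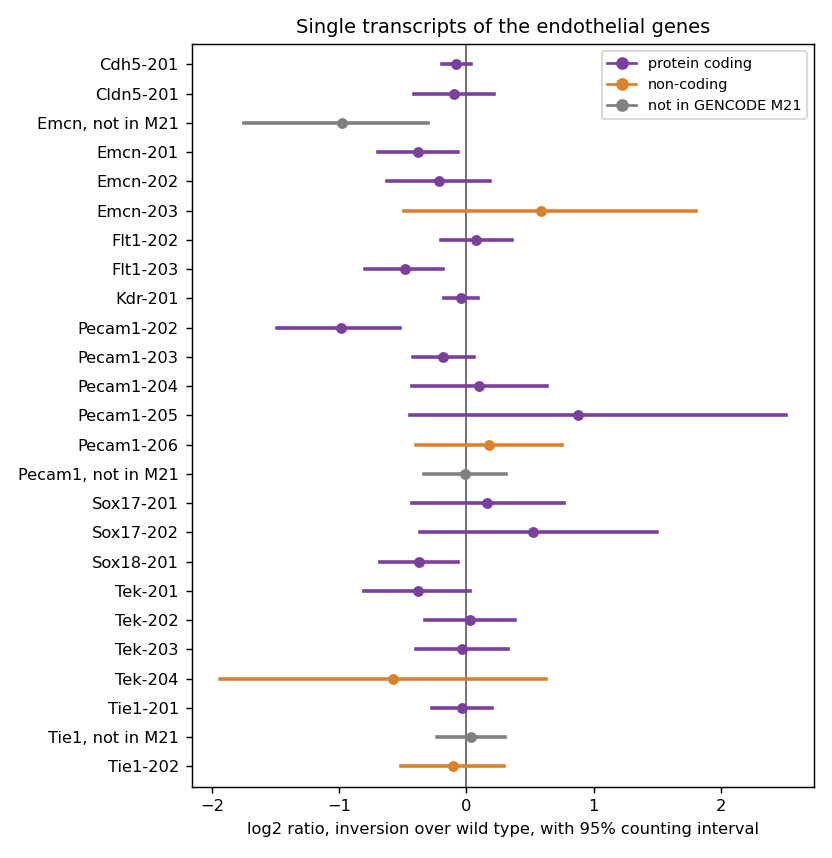
Log2 ratio of inversion over wild type (horizontal axis) of the 25 transcripts of the endothelial genes (vertical axis, by GENCODE name), with 95% counting intervals as bars and the kind of transcript by colour. The bars of Pecam1-202, Flt1-203, Emcn-201, Sox18-201 and the Emcn transcript that is not in M21 lie below 0, and no bar lies above 0.

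Flt1 makes a membrane receptor and a soluble form, which lacks the membrane span and the kinase and binds VEGF without passing on a signal. Flt1-202 encodes the receptor in 30 exons and 1333 codons, and Flt1-203 ends within an intron after 13 exons, with 688 codons. Both sequences are shown from the point where they part, because the difference in Flt1 turned on them. They are read on the minus strand in the 5′ to 3′ direction from GENCODE M21 transcripts (GRCm38), with the last 18 bases of the shared exon in lower case. Capitals mark, for the soluble form, the coding part of the intronic extension (chr5:147639133-147639224), which is followed by the stop codon TAA, and for the receptor the first 60 bases of the following exon (chr5:147634464-147634523).
Flt1-203, soluble form: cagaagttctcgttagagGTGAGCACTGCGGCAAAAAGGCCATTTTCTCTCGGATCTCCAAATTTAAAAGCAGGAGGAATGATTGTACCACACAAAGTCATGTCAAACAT
Flt1-202, membrane receptor: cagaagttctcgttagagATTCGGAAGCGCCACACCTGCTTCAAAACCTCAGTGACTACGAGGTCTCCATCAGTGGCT

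The lower count of Flt1 in the inversion library, at a ratio whose interval includes 0, lay in the transcript of the soluble form. Flt1-203 had 213 reads in wild type against 156 with the inversion, a log2 ratio of -0.48 (interval -0.79 to -0.18). The transcript of the membrane receptor had 204 and 221 reads, at 0.08 (interval -0.20 to 0.36). These intervals do not overlap except between -0.20 and -0.18. The soluble form thus took 51.1% of the reads of Flt1 in the wild-type library (46.2 to 56.0) and 41.4% in the inversion library (36.4 to 46.5), and the intervals of these shares meet at their ends. Apart from its 3′ end the soluble form shares its coding exons with the receptor, so this split depends on how shared reads were assigned.

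Pecam1, Emcn and Tek are each listed with protein-coding transcripts whose coding parts differ by a skipped exon. These exons are shown because they set apart the coding parts of the transcripts compared next. The exon of Pecam1 (chr11:106671742-106671798, minus strand, 57 bases) codes for 19 residues of the cytoplasmic tail and is present in Pecam1-202 and absent from Pecam1-203. The exon of Emcn (chr3:137403984-137404022, plus strand, 39 bases, 13 codons) is present in Emcn-202 and absent from Emcn-201. The exon of Tek (chr4:94799127-94799279, plus strand, 153 bases, 51 codons) lies in the extracellular part and is present in Tek-203 and absent from Tek-202. Capitals mark the exon, and lower case the 18 transcript bases on either side, all from GENCODE M21 on GRCm38.
Pecam1-202: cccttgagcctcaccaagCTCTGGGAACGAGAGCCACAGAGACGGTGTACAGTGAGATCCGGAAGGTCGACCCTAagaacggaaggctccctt
Emcn-202: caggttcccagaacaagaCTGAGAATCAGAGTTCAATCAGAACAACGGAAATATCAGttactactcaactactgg
Tek-203: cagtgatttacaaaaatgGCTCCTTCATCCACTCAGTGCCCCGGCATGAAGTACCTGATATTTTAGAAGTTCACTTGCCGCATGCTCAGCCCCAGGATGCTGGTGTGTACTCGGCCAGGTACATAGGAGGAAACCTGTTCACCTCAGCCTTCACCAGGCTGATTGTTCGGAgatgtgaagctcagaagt

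For Pecam1 the value of the whole gene hid unequal transcripts. Pecam1-202, which holds the 57-base exon, had 109 reads in wild type against 56 with the inversion, a log2 ratio of -0.98 (interval -1.49 to -0.52). Pecam1-203, without that exon, was the most counted transcript with 305 and 276 reads, at -0.18 (interval -0.42 to 0.06). Of the reads of these 2 transcripts, Pecam1-202 took 26.3% in the wild-type library (22.1 to 30.9) and 16.9% in the inversion library (13.0 to 21.3), and the intervals do not overlap. This split depends on how reads that fit both transcripts were assigned. Pecam1-204, a form with 727 codons, had 60 and 66 reads (log2 ratio 0.10, interval -0.43 to 0.63). Whether Pecam1-204 holds the 57-base exon was not tested, so the exon comparison covers Pecam1-202 and Pecam1-203 only. The transcript without an entry in M21 had 162 and 165 reads, the retained-intron transcript Pecam1-206 had 50 and 58, and the short Pecam1-205 had 7 and 14.

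For Emcn the shares of Emcn-201 and Emcn-202 had overlapping intervals in the 2 libraries. These transcripts are 1357 and 2588 bases long and so differ by far more than the 39-base exon. Their shares do not measure the use of that exon alone. Emcn-201 had 194 and 153 reads, a log2 ratio of -0.38 (interval -0.69 to -0.07), and Emcn-202, with the 39-base exon, had 111 and 98, at -0.21 (interval -0.62 to 0.19). Emcn-202 took 36.4% of the reads of both in the wild-type library (31.0 to 42.1) and 39.0% in the inversion library (33.0 to 45.4). The transcript that is not in M21 had the lowest ratio, -0.98, from 51 and 26 reads (interval -1.75 to -0.30). The retained-intron transcript Emcn-203 had 12 and 19 reads, at 0.59 (interval -0.49 to 1.80).

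The receptors of the angiopoietin system showed no such split. Tek-203, which holds the 153-base exon, had 130 reads in each library (log2 ratio -0.04), and Tek-202, which lacks it, had 133 and 139 (0.03). Tek-201 had 112 and 88 reads, and its interval of -0.80 to 0.03 includes 0. It has 23 exons and 1122 codons, beside 23 and 1123 in Tek-203. Whether Tek-201 holds the 153-base exon was not tested, so the exon comparison covers Tek-203 and Tek-202 only. Tie1-201 had 296 and 297 reads, at -0.03, and the other transcripts of Tie1 lay at -0.10 and 0.04. Both transcripts of Sox17 had more reads in the inversion library, 46 and 53 for Sox17-201 and 18 and 27 for Sox17-202, with intervals that include 0.

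By kind, the 18 protein-coding transcripts of the endothelial genes summed to 4492 reads in wild type against 4239 with the inversion, a log2 ratio of -0.12 (interval -0.18 to -0.06). The 4 non-coding ones, retained introns and processed transcripts, summed to 184 and 189. The 3 transcripts without an entry in M21, whose kind is unknown, summed to 446 and 436, at -0.07 (interval -0.26 to 0.12). Over all transcripts passing the filter, protein-coding ones had a median log2 ratio of -0.03 and retained-intron ones a median of 0.20, with a counting interval above 0 for 24.0% of the latter and below 0 for 2.50%. The part of this library-wide difference in the values of the endothelial genes was not tested.

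A list of 8 other genes of the VEGF system holds 5 ligands, the co-receptor genes Nrp1 and Nrp2, and Flt4, the gene of the receptor VEGFR3. Their median log2 ratio was 0.14. None was at least 2-fold different. A counting interval above 0 was found for 3 and one below 0 for none, against 16.7% and 13.0% of all genes. Vegfa, the ligand of both receptors, had 603 reads in wild type against 876 with the inversion, a log2 ratio of 0.50 (interval 0.35 to 0.65). Vegfd, listed as Figf and a ligand of VEGFR3, had 161 and 224 reads, at 0.44 (interval 0.14 to 0.74). Nrp2 had 2646 and 2947 reads, at 0.12 (interval 0.04 to 0.20).

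The intervals of the other 5 genes of this list included 0. Among the ligands, Vegfb lay at 0.17, Pgf at 0.19 and Vegfc at -0.01. Nrp1 lay at -0.12 and Flt4 at -0.15. The value of Vegfa was spread unevenly over its 9 transcripts, which were looked at after its values were seen. Its coding transcript Vegfa-202 had 124 reads in each library, Vegfa-211 had 227 and 284, and Vegfa-207 had 19 and 61, while its retained-intron transcript Vegfa-209 had 17 and 54. With the transcript of highest mean alone the log2 ratio of Vegfa was 0.29, and with coding transcripts alone it was 0.33.

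In the angiopoietin list, 3 of 4 genes passed the filter, with a median of -0.10. Angpt2, which loosens the contact of endothelium with its support cells by acting on TIE2, had 90 reads in wild type against 29 with the inversion. Its log2 ratio of -1.64 (interval -2.33 to -1.05) made it 1 of the genes that were at least 2-fold lower. Both of its transcripts shared the direction, with 76 and 26 reads for the coding Angpt2-201 and 14 and 3 for Angpt2-202. Angpt1, the activating ligand of TIE2, had 451 and 431 reads (-0.10, interval -0.30 to 0.09). Ptprb, the gene of the phosphatase VE-PTP that acts on TIE2 and VE-cadherin, had 197 and 246 reads, at 0.28 (interval 0.0082 to 0.56), and was not called by the adjusted binomial test. Angpt4 had 4 and 2 reads and did not pass the filter.

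The other transcription factors of endothelium resembled the members in their median. The filter was passed by 13 of 14 genes, whose median log2 ratio was -0.10. Of the 13 ratios, 10 were below 0, beside at least 51.7% of the ratios of all genes. The exception in size was Gata2, a factor of endothelial and blood progenitor cells and of other tissues, with 220 reads in wild type against 93 with the inversion. Its log2 ratio was -1.27 (interval -1.64 to -0.92), and both of its coding transcripts were lower, with 34 and 16 reads for Gata2-201 and 186 and 77 for Gata2-202. The highest ratio was that of Lmo2, a partner of Gata2 in blood and endothelial complexes, at 0.32 (interval 0.09 to 0.55). Sox7, the third gene of the SoxF group and named after its values were seen, had 289 and 246 reads, at -0.27 (interval -0.52 to -0.02), and was not called by the adjusted binomial test.

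Among 24 further genes of endothelial surface and signalling proteins, all of which passed the filter, the median was -0.07. There were 4 counting intervals above 0 and 3 below 0, against 16.7% and 13.0% of all genes. Adgrf5, listed as Gpr116 and encoding an adhesion G protein-coupled receptor of endothelium, lung and kidney, was the gene at least 2-fold higher. It had 951 reads in wild type against 2267 with the inversion, a log2 ratio of 1.22 (interval 1.11 to 1.33), all from a single transcript. This transcript has no entry in M21, so the alternative with coding transcripts alone gave no value for Adgrf5. The lowest ratio was -0.39 for Myct1, with 118 and 92 reads and an interval of -0.80 to 0.01.

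Lists of vessel type showed no common direction in these bulk samples, where the cells that gave the reads are not known. The venous gene Ephb4, for example, had 2866 and 2781 reads, more than the 1253 and 1217 of Cdh5. The 12 arterial and Notch genes had a median of 0.06, with 5 intervals above 0 and 1 below, from Cxcr4 at -0.29 (interval -0.62 to 0.03) to the kinase gene Bmx at 1.31 (interval 0.38 to 2.47), which rested on 12 and 32 reads. Its coding transcript Bmx-201 had 6 and 11 reads, at 0.74 (interval -0.72 to 2.56). A transcript of Bmx without an entry in M21 had 6 and 21 reads. Bmx lies on the X chromosome, as does Vegfd, and the pools differed in sex. Apart from Xist, the other X-linked genes of the lists had ratios below 0. These were Apln at -0.08, Pgk1 at -0.10, Alas2 at -0.24 and Gata1 at -0.53, with an interval below 0 for Alas2 only. The part of embryo sex in these values was not tested. The 3 venous genes had a median of -0.09, and 2 of them had an interval below 0, the lowest being Nr2f2, which encodes the venous factor COUP-TFII, at -0.19 (interval -0.32 to -0.07), and the highest Ephb4 at -0.08. Of the 3 lymphatic genes, Prox1 was at 0.45 with an interval of -0.12 to 1.05, Pdpn at -0.30 (interval -0.52 to -0.08), and Lyve1, with 1 and 6 reads, did not pass the filter. The 4 genes of sprouting tip cells lay between -0.17 for Kcne3 and 0.04 for Esm1, each with an interval that includes 0. Over these lists together with the VEGF, angiopoietin, transcription factor and surface lists, 69 genes passed the filter, with a median of -0.06. Of these, 2 were higher and 2 lower by 2-fold or more, against 3.99% and 0.483% of all genes. The counting interval lay above 0 for 14 and below 0 for 11 of the 69, against 16.7% and 13.0% of all genes.

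**Figure D4:**
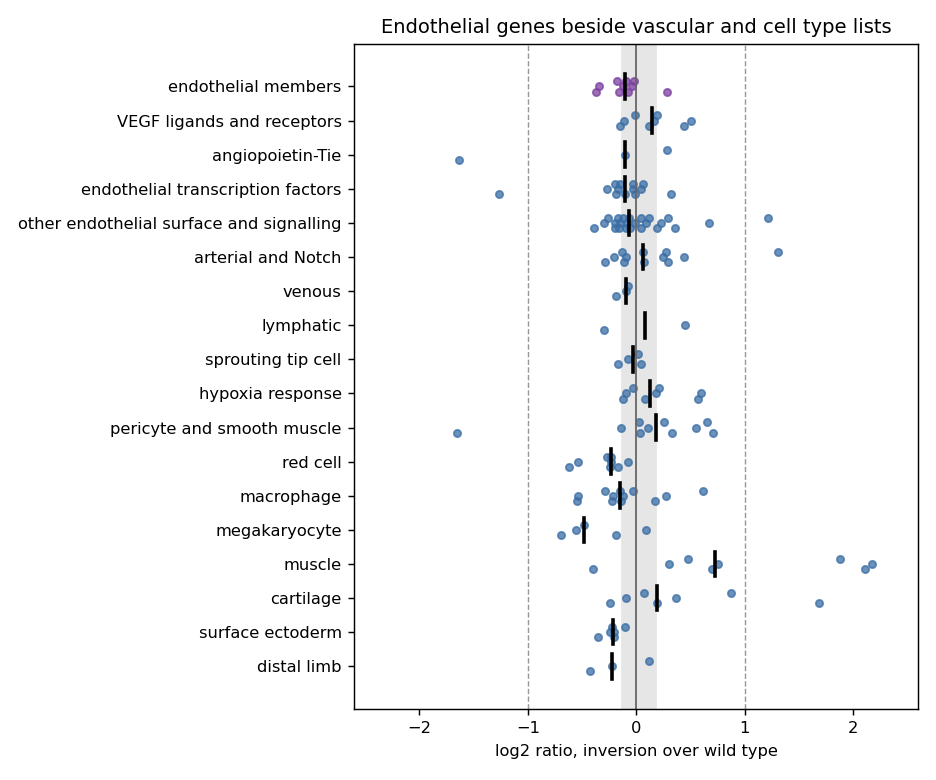
Log2 ratio of inversion over wild type (horizontal axis), 1 point per gene passing the filter, for the endothelial genes (top row) and the lists compared with them (other rows), with the median of each list as a black bar, the range between the quartiles of all genes shaded and 2-fold differences dashed. The endothelial genes lie between -0.37 and 0.28, the muscle and cartilage lists reach furthest to the right, and Angpt2, Gata2 and Kcnj8 are the points at the left beyond the 2-fold line.

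Lists of several other cell types in the limb differed by more than the endothelial genes. The list of pericytes and smooth muscle, the support cells of vessels, had a median of 0.18 over 10 genes, from the pericyte channel gene Kcnj8 at -1.65 (interval -2.75 to -0.80, 42 and 13 reads) to Rgs5, a further pericyte gene, at 0.70 (interval 0.32 to 1.11). The muscle list had a median of 0.73 and summed to 991 reads in wild type against 2349 with the inversion. Its extremes had few reads, with Pax7 highest at 2.18 (interval 1.14 to 3.74, 7 and 36 reads) and Pax3 lowest at -0.40 (interval -1.33 to 0.48, 26 and 20 reads). The cartilage list had a median of 0.19, from -0.24 for Sox6 to 1.68 for Matn1. Ratios below 0, as in 9 of the 10 endothelial genes and at least 51.7% of all genes, were also found for blood and skin. All 8 red cell genes found had a ratio below 0, with a median of -0.24 and sums of 15818 and 13511 reads, and they ranged from -0.62 for Klf1 to -0.08 for Hba-x.

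All 6 genes of the surface ectoderm were also below 0, with a median of -0.22, sums of 4998 and 4416 reads, and a range from -0.35 for Epcam to -0.11 for Trp63. The 5 megakaryocyte genes had a median of -0.48 and sums of 589 and 492 reads, from -0.70 for Gp9 to 0.09 for Gp1bb. The 12 macrophage genes summed to 1739 and 1735 reads, with a median of -0.15 and a range from -0.55 for Tyrobp to 0.62 for Cd68. The 3 distal limb genes had a median of -0.22 and sums of 3555 and 3257 reads. Their counting interval lay above 0 for 1 and below 0 for 2, against 16.7% and 13.0% of all genes. They ranged from -0.43 for Lhx2 to 0.12 for Hoxa13, which had 1084 and 1208 reads. The 9 hypoxia response genes, of which 8 passed, had a median of 0.13, from -0.12 for Slc2a1 to 0.60 for Car9. The part of the makeup of the pools in the values of the endothelial genes was not tested.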

How the data were processed

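Distal forelimbs at E12.5 gave 1 wild-type library and 1 inversion library. The tissue label of both is distal limb, but the title of the wild-type sample reads wtFL, while its column in the table and the inversion sample carry DFL. The column was assigned to the sole wild-type sample. The authors sequenced stranded poly(A) libraries as single-end reads, mapped them to NCBIM37 (mm9; the submitters' processing notes name Bowtie2) and counted reads per transcript with the HTSstation pipeline. The strand setting of the counting and the treatment of reads that fit several transcripts are not given in the sources used here. The deposited signal is the reads of a transcript over the size factor of its library, with 0.5 for no reads. The methods name RPKM, but the values do not scale with length. Within a tolerance of 0.1, 100% of values were whole reads, so counts were recovered. The remaining columns, the authors' mean, fold change, log2 fold change, p-value and adjusted p-value, were not used.

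Transcripts were summed by symbol and chromosome. The unit was assumed to be normalized values when the tests were set, and the ratio under the scaling of the authors stayed the main result. Ratios used a pseudocount of 1, a mean of at least 10 and a 2-fold threshold, on a log2 scale that understates differences of genes with few reads. Positions, lengths, types and sequences come from GENCODE M21 (GRCm38, whereas the mapping used NCBIM37), with 88.1% of transcripts found by identifier. The alternatives were 3 other scalings or centrings, other pseudocounts, filters, thresholds and lengths, the transcript of highest mean, coding transcripts alone, and a two-sided exact binomial test of the reads with Benjamini-Hochberg adjustment at 0.05. The genes named are the 10 members, all genes of the VEGF and angiopoietin lists, and the highest and lowest of each other list. Sox7, the X-linked genes Apln, Pgk1, Alas2 and Gata1 and the transcripts of Vegfa fall outside this rule, as do the transcripts of other named genes. The members and the 18 lists were chosen with earlier results of these data known. Of the red cell list, 1 gene has no row. The steps were tested on simulated data. Computation used scipy 1.17.1, pandas 2.3.3 and numpy 2.4.6 under Python 3.11.15, and plots were drawn with matplotlib 3.10.9.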

Additional observations from a re-analysis of the deposited data

How the results depend on the processing

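No paired analysis was possible because each group holds a single library. The median of the endothelial genes stayed between -0.12 and -0.06 under each alternative, and at a threshold of 1.5-fold none of the 10 genes was called. The scalings shifted the log2 ratios by 0.0075 (total reads), -0.0094 (upper quartile) and 0.019 (median of all genes), and so tested little. The number of endothelial genes called from counts was 1 by the adjusted binomial test in place of 3. Of their 20 levels per kb, 9 moved beyond counting error when the longest transcript gave the length. The counts over all genes, 668 higher and 81 lower, became 412 and 110 with coding transcripts only, 1577 and 341 at a threshold of 1.5-fold, 113 and 13 at 4-fold, 139 and 12 when the mean had to reach 100, and 1992 and 1089 with no filter. Filters and thresholds act by the genes they let in, and beyond this the cause was not tested.

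For 29 single genes the alternatives gave 202 values, of which 197 lay inside the counting interval of the gene, 5 lay outside, and 6 had the other sign. With its transcript of highest mean standing for the gene, Flt1 was at 0.08 and Tek at 0.03, and Tie1 was at 0.0014 once the median of all genes was subtracted. Of 162 values of 18 list medians, 161 moved by less than the typical counting margin of a gene in the list, the angiopoietin list moved to -0.43 with no filter, which adds Angpt4, and 4 had the other sign, among them the arterial list at -0.05 with coding transcripts only. Depth limits Sox17 and the transcripts with few reads.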
